A study of Mus musculus with 12 samples.

Results

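The earliest response to the higher concentration of methoxyacetic acid (MAA) in this study, 5 mM for 3 h, was measured in TM3 cells on 2 arrays, chosen by their labels from the 12 arrays of the series. TM3 is a line of Leydig cells, the androgen-producing cells between the seminiferous tubules, that was established from the testis of immature Balb/c mice. MAA was given at 5 mM for 3, 8 or 24 h and at 1 mM for the same periods, and every array set RNA of exposed cells against RNA of time-matched cells that received only culture medium. Exposed and control cells shared the medium, DMEM-F12 with horse serum and fetal bovine serum. By the labels, the cells of an array's sides differ in MAA alone, while their RNA also differs in dye. Each RNA was a pool of 3 cultures, and the 2 arrays at 5 mM for 3 h used separate pools of exposed cells with the dyes exchanged: the green channel held the MAA RNA on replicate 1, and the red channel held it on replicate 2. Whether the control RNA also came from separate pools is not given in the sources used here, nor whether the 1 mM and 5 mM arrays of 3 h shared it. As a model this is 1 immortal line in culture without the other cells of a testis. The p-values measure only the spread between arrays of a treatment, in which pool, dye orientation and slide differ together.

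Cells form MAA from a glycol ether solvent, ethylene glycol monomethyl ether. It damages the testis and is known to inhibit histone deacetylases, enzymes that remove acetyl groups from histones and other proteins. Genes that answer a stimulus within hours without new protein synthesis are called immediate early genes. Many of them are switched on by the mitogen-activated protein (MAP) kinase cascade, which growth factors of the EGF family set off and which Dusp and Sprouty proteins damp. Leydig cells use cyclic AMP and calcium signals downstream of luteinizing hormone to control steroid synthesis, and they secrete growth factors and chemokines that act on neighbouring cells.

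A measurement here is the log2 ratio of the MAA signal to the control signal of a probe, from intensities that the scanner software had already corrected for background and dye. Each array carried 41174 probes, of which 25704 (62.4%) are called detected below, because on each array 1 or both channels were well above background. Of all probes, 22147 matched a gene symbol, and a gene is represented by its brightest probe, which gave 16017 genes, 10957 of them detected. A probe or gene was called when limma's unadjusted p was under 0.005 and the mean change over 2-fold, with p-values adjusted over all probes (Benjamini-Hochberg) given beside it. The log2 ratios of the 2 arrays correlated at 0.496 over all probes and at 0.787 over the 24423 probes well above background in every channel. Over all probes the median log2 ratio lay at -0.10 for the mean of the arrays, -0.08 on replicate 1 and -0.13 on replicate 2, but at -0.01 and -0.02 among probes above background in both channels, so the shift lay mostly among dim probes. The arrays lay on different slides, and a slide effect and the replicate cannot be told apart within this pair.

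Markers of the labelled cell type were present only in part. Of 28 genes of Leydig cells and steroid synthesis, 15 were detected. Among them Star, the cholesterol carrier of mitochondria, Cyp17a1, Insl3, Por and Gata4 gave signals well above background on both arrays in both channels. Lhcgr (the receptor for luteinizing hormone), Cyp11a1 (the enzyme of the first step from cholesterol), Hsd3b1, Hsd3b6, Hsd17b3 and Nr5a1 were not well above background in any channel of these arrays. Among markers of other cells, 8 of 15 Sertoli cell genes, 6 of 19 germ cell genes, 3 of 10 macrophage genes and 4 of 15 endothelial and smooth muscle genes were detected, and Ptprc, Adgre1, Cdh5, Pecam1 and Dazl were not well above background. The cells are therefore called TM3 cells below.

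At 5 mM for 3 h, 831 probes were called up and 715 called down, 2.02% and 1.74% of the 41167 tested. All 1546 moved the same way on both arrays, which the call rule requires, since arrays of opposite sign cannot reach its p. Called or not, 1343 probes were past 2-fold on both arrays. Of these, 1177 moved the same way, 144 were higher in the red channel on both arrays and 22 in the green. By gene, 304 rose and 278 fell, 1.9% and 1.74% of 16013 genes tested, with median log2 changes of 1.31 and -1.24. Among the 10957 detected genes the shares were higher, 2.48% up and 2.28% down. Lists below are set against all genes, although the genes of many lists were mostly detected. In RNA of whole cultures, a change in the share of cells that express a gene and a change in its RNA per cell cannot be told apart. The largest adjusted p among called probes was 0.025, and 1090 called probes were past 2-fold on each array alone. Of the 168 called genes with further probes, 81 had another probe called in the same direction and 21 had a probe of the opposite sign. Centring each array on its median raised the share of calls that were up from 53.8% to 67.3%, with 1109 probes up and 539 down. A second background correction, normexp with an offset of 50 followed by loess normalization, left 290 probes up and 245 down.

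**Figure D1:**
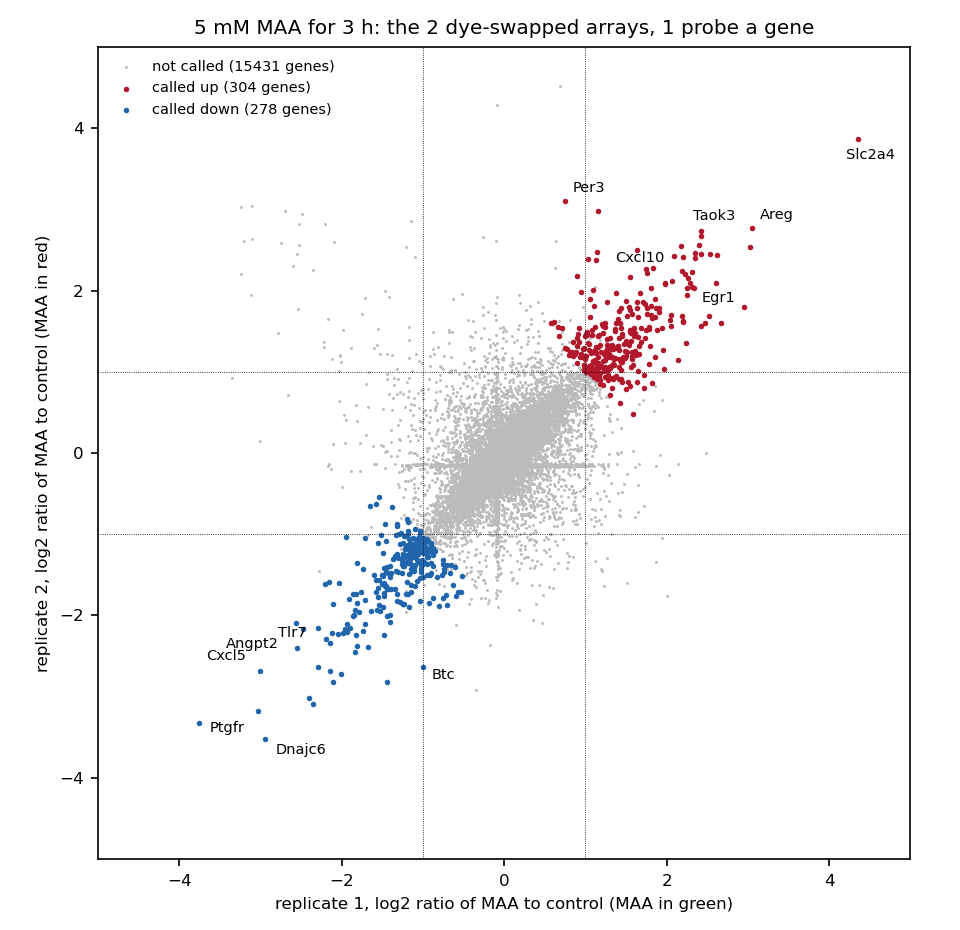
Each point is 1 gene, by the log2 ratio of MAA to control on replicate 1 (x axis) and replicate 2 (y axis), where the dyes were exchanged; red and blue points are the 304 genes called up and the 278 called down, grey points the 15431 not called, and dotted lines mark a 2-fold change. Slc2a4 stands apart at 4.36 and 3.87, and Per3 (0.74 and 3.11) is a called gene whose arrays lie far apart.

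The largest increase among genes measured in both channels was that of Slc2a4, the insulin-responsive glucose transporter GLUT4. Its signal was 738 against 36.0 in control RNA on replicate 1 and 497 against 33.9 on replicate 2, log2 ratios of 4.36 and 3.87. The mean increase was 17.3-fold (log2 4.12, SE 0.15, n = 2 arrays, adjusted p = 1.44e-05), and both arrays lay above those of every other detected gene. Areg, which encodes the EGF receptor ligand amphiregulin, was next with log2 ratios of 3.05 and 2.77 (7.53-fold, SE 0.11, adjusted p = 1.44e-05). Taok3, a kinase of the STE20 family that acts above stress-activated MAP kinases, rose with 2.42 and 2.74. Pkp2, a plakophilin of desmosomes, rose with 2.62 and 2.44, and Kank3, of a family of actin regulators, with 2.54 and 2.45. Gch1, the GTP cyclohydrolase that limits tetrahydrobiopterin synthesis, had 2.40 and 2.56. Its second probe was also called, at a mean of 2.15.

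The other genes among the 15 largest increases had mean log2 ratios from 2.14 to 2.44: Abhd3, a phospholipase, Abhd15, Mro, Prtn3 (a serine protease known from neutrophils), Cxcl10, Nrarp, Itpka, Egr1 and the kinesin Kifc2. Abhd15 was the least even of them, at 2.95 and 1.80. Adjusted p-values of these 15 genes lay between 8.4e-06 for Kank3 and 5.63e-04 for Abhd15. With normexp and loess, 11 of the 15 kept their call, among them Slc2a4 at a log2 ratio of 2.75, Areg at 1.58, Taok3 at 1.32 and Pkp2 at 1.84, and Abhd15, Mro, Prtn3 and Nrarp lost it at values of 0.80 to 1.00.

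The largest decrease measured in both channels was that of Dnajc6, the auxilin that strips clathrin from vesicles. Its signal was 75.3 against 580 in control RNA on replicate 1 and 57.6 against 661 on replicate 2, so the log2 ratios were -2.95 and -3.52 (9.41-fold lower, SE 0.17, n = 2, adjusted p = 2.73e-05). Cxcl5, a chemokine that draws neutrophils, fell from 41130 to 5128 and from 39340 to 6144, log2 ratios of -3.00 and -2.68 (7.17-fold lower, adjusted p = 1.44e-05). Angpt2, a ligand of the endothelial receptor TIE2, fell with -2.55 and -2.40. Below these 3 genes, all with changes past 5-fold, lay Ggt5, an enzyme of glutathione and leukotriene metabolism (-2.01 and -2.72), Lrrc66, Fam180a, Tlr7, the imprinted gene Peg10, Igfbp5, Tmem17 and 1700034E13Rik.

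Kmt5b, a methyltransferase of histone H4 lysine 20, belongs to the same group of large decreases. Its log2 ratios were -2.15 and -2.33 (4.73-fold lower, SE 0.07, adjusted p = 1.26e-05), and its second probe was called at a mean of -1.46. With normexp and loess, 1700034E13Rik (-0.53) lost its call, and among the other decreases named here Dnajc6 stood at -2.35, Angpt2 at -1.05 and Peg10 at -1.29.

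**Figure D2:**
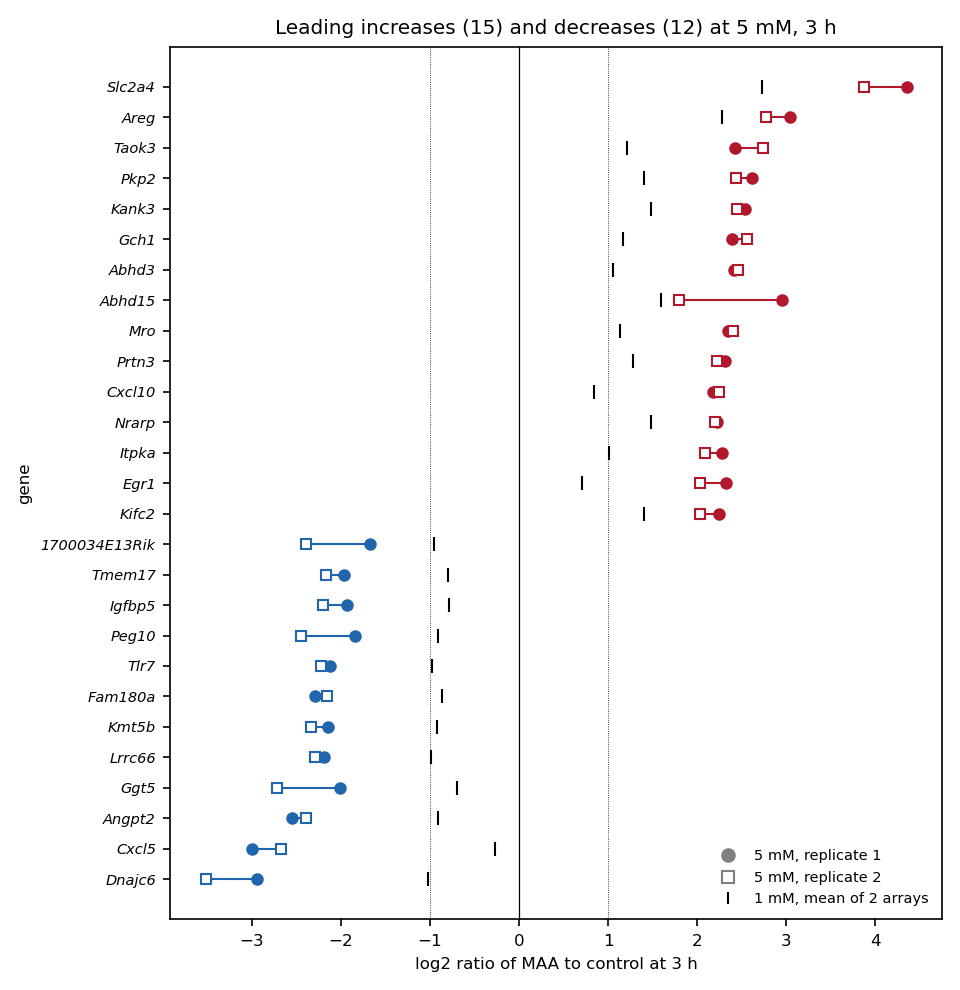
Log2 ratio of MAA to control at 3 h (x axis) for the 15 genes with the largest increases (red) and 12 of those with the largest decreases (blue) at 5 mM; circles are replicate 1, squares replicate 2, and black ticks the mean of the 2 arrays at 1 mM. All array values lie past a 2-fold change, and every 1 mM tick lies nearer to 0 than both arrays of 5 mM.

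For genes seen above background in MAA RNA alone or in control RNA alone, the fold is only a lower limit, set by the dimmest signal that the software accepts. This held for 58 of the 582 called genes, and in 43 more neither channel was well above background, so no fold is given for those. Among increases, the limit was at least 3.05-fold for Tmem117, at least 2.90-fold for the glucose transporter Slc2a6 and for Foxj1, the master regulator of motile cilia, and at least 2.85-fold for Nod2, an intracellular sensor of bacterial peptides. Extl1 and Meig1, a gene of sperm formation, had limits of 2.79 and 2.62. Among decreases, Vpreb1, the surrogate light chain of early B cells, fell at least 5.05-fold, from control signals of 55.5 and 63.4. Ptgfr, the receptor for prostaglandin F2-alpha, fell at least 3.73-fold: control cells gave 39.6 and 49.0 and MAA cells 2.93 and 4.88. Dipk1c, Celsr1, Tmem178 and Il12a had limits of 3.06, 2.41, 2.36 and 2.21. All 12 of these calls were lost with normexp and loess, at log2 ratios between -0.73 and 0.55.

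Immediate early transcription factors were among the genes that moved. Of 37 such genes on the array 6 rose and 2 fell (16.2% and 5.41%, against 1.9% and 1.74% of all genes), and the list's median log2 ratio was 0.48 where that of all genes was -0.07. Egr1, a zinc finger factor induced by serum and growth factors, gave signals of 2689 against 535 and of 1979 against 483, log2 ratios of 2.33 and 2.04 (4.54-fold, SE 0.12, n = 2, adjusted p = 3.36e-05). Nr4a1, an orphan nuclear receptor that luteinizing hormone is known to induce in Leydig cells, rose with 1.81 and 2.03 (3.78-fold, SE 0.07, adjusted p = 1.32e-05). Fos, a subunit of the AP-1 factor, rose with 1.90 and 1.79, and Egr2 with 1.89 and 1.51. The smaller increases were those of Ier3 (1.33 on each array) and Ier2 (1.29 and 1.18). The 6 increases were past 2-fold on both arrays.

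The family did not move as one. Fosl2, another AP-1 subunit, fell with -1.10 and -1.38 on its brightest probe (adjusted p = 0.000121), and a second probe, not called, had -0.64 and -0.73. The repressor Klf3 fell with -1.32 and -0.90. Junb had 0.85 and 0.98, Nr4a2 0.58 and 0.90, Klf4 0.60 and 0.79, Atf3 0.60 and 0.70 and Jun 0.55 on each array, all under 2-fold. Fosb (0.21 and 0.31) and Myc (0.17 and 0.06) lay closer to 0, and Egr4 and Nr4a3 were not well above background. Over the processing settings tried and with either array left out, 6 to 8 genes of the list were called up, and Egr2 had a log2 ratio of 1.09 with normexp and loess. Of 18 CREB and ATF factors, which bind cyclic AMP response elements, only Creb5 was called on its brightest probe (5.56% up, against 1.9% of all genes). It rose with 0.91 and 1.47, and was not called without replicate 2 or with normexp and loess. Atf1 had a mean of -0.98 on its brightest probe, while another probe fell with -1.02 and -1.03 (2.04-fold lower, adjusted p = 3.85e-05). Crem, which cyclic AMP itself induces, had -0.50 and -0.72.

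Of 13 genes of the EGF family, 3 rose and 1 fell (23.1% and 7.69%, against 1.9% and 1.74% of all genes). The list median was -0.05. Besides Areg, the ligand gene Hbegf rose with 1.63 and 1.87 (3.36-fold, SE 0.09, n = 2, adjusted p = 2.85e-05), from control signals of 205 and 146 to 635 and 531. The receptor gene Erbb3 rose at least 1.62-fold, since its control channel was not well above background, and that call was lost without replicate 2. The ligand gene Btc fell at least 2.13-fold, with a mean log2 ratio of -1.82 and arrays far apart, while a dim second probe had a mean of -0.12. The calls of Erbb3 and Btc were lost with normexp and loess. Ereg, a ligand gene that lies in the same cluster as Areg, had -1.01 and -0.90, just short of a 2-fold decrease, and Egfr had 0.01 and -0.11. Within 1 ligand family, then, the values ran from an increase of 7.53-fold to decreases near 2-fold.

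Genes that damp MAP kinase signals moved upward where they moved. Of 23 such genes, 5 rose (21.7%, against 1.9% of all genes) and none was called down, with a list median of 0.39. Spry1, a Sprouty inhibitor of receptor tyrosine kinase signals, rose with 1.55 and 1.52 (2.89-fold, SE 0.11, n = 2, adjusted p = 7.45e-05). Errfi1, which binds and blocks EGF receptors, rose with 1.31 and 1.42, Dusp6, the phosphatase of ERK, with 1.34 and 1.28, and Dusp14 with 1.19 and 1.25. These 4 genes were past 2-fold on both arrays and kept their calls under every setting tried. Spry4 rose on average, with 1.55 and 0.83, and lost its call without either array and with normexp and loess. Dusp4 had 0.62 and 0.89, Dusp1 -0.15 and -0.12 and Spry2 -0.15 and 0.12. In the cascade itself 3 of 35 genes were called (8.57%), all up. They were the MAP kinase-activated kinases Mknk1 (1.18 and 0.85) and Mknk2 (0.90 and 1.11), just past 2-fold, and Rasgrp3, which was not well above background. Mknk1 lost its call without replicate 1, and Mknk2 without replicate 2 and with normexp and loess.

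Promoter windows of 4 of these early genes are given because each holds a motif of a factor class discussed above. The sequences are from RefSeq (GRCm38.p6), run 5' to 3' along the gene's strand from 250 bases before to 50 bases after the annotated start, and show the motif in capitals. For Areg (chr5:91139349-91139648, plus strand), Errfi1 (chr4:150854820-150855119, plus strand) and Plk2 (chr13:110394794-110395093, plus strand; a stress-induced polo-like kinase that rose with 0.94 and 1.22, though not without replicate 2), the capitals mark the cyclic AMP response element TGACGTCA, which starts 61, 51 and 62 bases before the gene start. For Egr2 (chr10:67537316-67537615, plus strand), they mark a CArG box, the site of serum response factor, 72 bases before the start.
Areg: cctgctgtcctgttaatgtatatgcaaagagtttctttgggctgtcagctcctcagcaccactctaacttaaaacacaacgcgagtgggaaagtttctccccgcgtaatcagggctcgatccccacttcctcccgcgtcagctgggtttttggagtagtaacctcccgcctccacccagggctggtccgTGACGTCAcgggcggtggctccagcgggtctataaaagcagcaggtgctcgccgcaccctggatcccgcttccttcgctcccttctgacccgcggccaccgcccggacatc
Errfi1: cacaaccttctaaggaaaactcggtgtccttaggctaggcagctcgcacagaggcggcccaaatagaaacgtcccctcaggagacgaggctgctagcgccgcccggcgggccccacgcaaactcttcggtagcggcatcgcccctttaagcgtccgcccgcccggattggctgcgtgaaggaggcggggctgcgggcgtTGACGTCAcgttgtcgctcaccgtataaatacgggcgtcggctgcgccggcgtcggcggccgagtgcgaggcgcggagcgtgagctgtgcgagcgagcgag
Plk2: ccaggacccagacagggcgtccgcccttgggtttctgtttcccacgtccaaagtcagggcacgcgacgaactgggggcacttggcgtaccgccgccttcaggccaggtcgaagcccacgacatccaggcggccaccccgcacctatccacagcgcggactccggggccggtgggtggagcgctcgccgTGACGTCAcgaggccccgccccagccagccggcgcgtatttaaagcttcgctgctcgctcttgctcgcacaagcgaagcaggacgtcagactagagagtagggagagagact
Egr2: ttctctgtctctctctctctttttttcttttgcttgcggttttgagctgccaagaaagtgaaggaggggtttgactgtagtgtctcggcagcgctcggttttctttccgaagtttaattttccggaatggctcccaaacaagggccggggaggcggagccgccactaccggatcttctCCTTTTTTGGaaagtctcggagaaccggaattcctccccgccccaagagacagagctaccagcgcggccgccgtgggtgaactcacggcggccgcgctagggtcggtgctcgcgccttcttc

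The same motifs were counted in all windows. RefSeq windows were found for 218 genes called up (268 windows) and 202 called down (251 windows), and matches on either strand were counted. The full cyclic AMP response element was in 2.99% of windows of genes called up, 3.19% of those called down, 3.25% of those of detected genes that changed by less than 1.2-fold, and 1.79% of all 32851 windows. A CArG box was in 2.61%, 1.59%, 1.19% and 1.63% of the same sets, where 4 of the 7 windows of genes called up belong to Egr2 alone, and the AP-1 site TGACTCA in 4.1%, 5.18%, 3.34% and 5.2%. The EGR site GCGTGGGCG was in 0.746% of windows of genes called up, in none of those called down and in 0.991% of those of little-changed genes. GC boxes (GGGCGG) were in 64.2%, 49.8% and 60.9% and the E box CACGTG in 11.9%, 7.97% and 10.6%. These shares are descriptions of letters in a short window, with no test, and the windows of 1 gene can overlap.

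In the Notch and hedgehog pathways, 5 of 28 genes rose and 1 fell (17.9% and 3.57%, against 1.9% and 1.74% of all genes). The list median was 0.13. Notch1, a receptor, rose with 1.81 and 1.69 (3.37-fold, SE 0.10, n = 2, adjusted p = 3.93e-05), and Jag1, a ligand, with 0.98 and 1.03. The Notch targets Hey1, a repressor, and Nrarp, a feedback inhibitor, rose with 2.04 and 1.63 and with 2.23 and 2.20. Hes1, the best known target, had 0.79 and 0.48. Of the 9 receptors and ligands 7 had a mean above 0, and of the 8 targets 5 did, with lowest means of -0.31 and -0.40. Dhh, the hedgehog ligand that Sertoli cells are known to send to Leydig cells, gave MAA signals of 25.1 and 27.7 against control signals not well above background, an increase of at least 2.00-fold. The hedgehog targets Gli1 (0.30 and 0.48) and Ptch1 (-0.42 and -0.05) were not called. Gas1, a hedgehog co-receptor known from growth arrest, fell with -1.91 and -1.80 (3.61-fold lower, adjusted p = 1.86e-05). With normexp and loess the calls of Dhh, Jag1 and Nrarp were lost, and Jag1 was also lost without replicate 2. Sox9, another gene known from Sertoli cells, rose with 1.58 and 1.16 on its brightest probe, a call lost with normexp and loess. A second Sox9 probe was called up with 1.32 and 0.79, but another that was not well above background had a mean of -1.41. The 13 other Sertoli cell genes on the list were not called.

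Of 20 genes of the circadian clock, 5 rose and 1 fell (25% and 5%, against 1.9% and 1.74% of all genes). The list median was 0.06. Per2 and Per1, period genes that respond to acute signals as well as to the clock, rose with 1.36 and 1.29 (2.51-fold, adjusted p = 1.86e-05) and with 1.06 and 1.09 (2.11-fold, adjusted p = 3.93e-05). The repressor Cry2 had 0.99 and 1.08 and the activator Arntl (BMAL1) 1.07 and 0.97. Per3 was called on 0.74 and 3.11, with a control channel not well above background, and is at least 1.68-fold higher. Timeless fell with -1.01 and -1.10, and its second probe had a mean of -0.48. Bhlhe40 (-0.70 and -0.67), Nr1d2 (-0.62 on each array) and Clock (0.07 and -0.03) were not called. Apart from Per3 and Per2 these calls lay within 0.1 of the log2 threshold: normexp and loess left only Per2 called up, leaving out replicate 2 ended the calls of Per3 and Cry2 and leaving out replicate 1 that of Arntl, and centring ended that of Timeless. A second Per2 probe had a mean of -0.12.

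**Figure D3:**
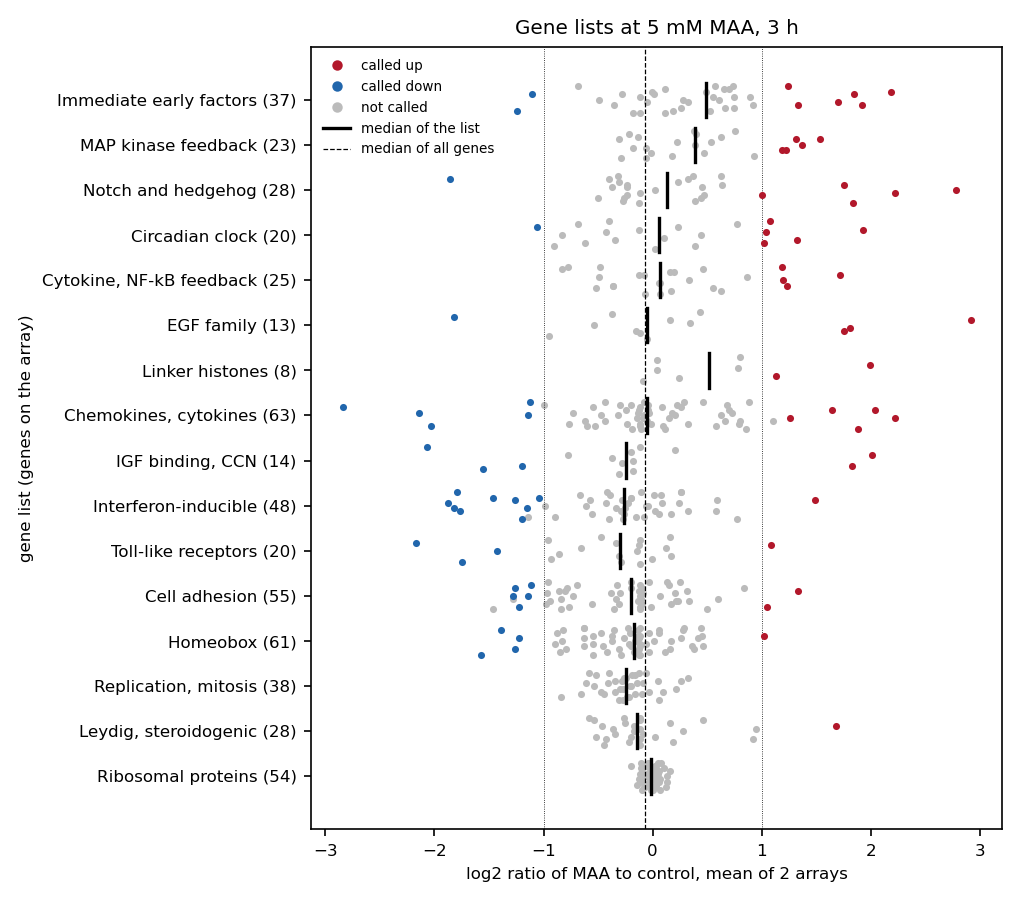
Log2 ratio of MAA to control, mean of the 2 arrays at 5 mM for 3 h (x axis), of every gene in 16 gene lists (rows, with the number of genes on the array); red and blue points are genes called up and down, black bars the list medians and the dashed line the median of all genes, -0.07. Immediate early factors and MAP kinase feedback genes have medians to the right of that line (0.48 and 0.39), Toll-like receptor and interferon-inducible genes to its left (-0.30 and -0.26), and ribosomal proteins lie close to 0 on either side.

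Chemokines and cytokines moved in both directions, 5 up and 5 down of 63 (7.94% each, against 1.9% and 1.74% of all genes). The list median was -0.05. Cxcl10, an interferon-inducible attractant of T cells, rose with 2.18 and 2.25 (4.64-fold, SE 0.07, n = 2, adjusted p = 1.26e-05), and Cx3cl1, fractalkine, with 1.86 and 1.90, its second probe likewise called. Tnfsf11, the osteoclast factor RANKL, had 1.98 and 2.08, Ccl17 1.57 and 1.71 and Tslp 1.27 and 1.24. Beside Cxcl5, the neutrophil attractant Cxcl1 fell with -1.90 and -2.16 (4.08-fold lower, SE 0.09, adjusted p = 1.86e-05). Cxcl12 fell with -1.12 and -1.16 and Clcf1 with -1.22 and -1.03, and Il12a was not well above background in MAA RNA. Ccl2 (0.66 and 1.11) and Il6 (0.60 and 0.74) were higher on both arrays but under 2-fold. With normexp and loess Tnfsf11 kept its call at 1.27, and 3 genes of the list were called down, among them Cxcl5 and Cxcl1. Il12a lost its call there, and Cxcl12 and Clcf1 were not followed gene by gene. The 2 called CXC chemokines with a known pull on neutrophils fell, while Cxcl10 rose.

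Of 25 genes of the SOCS family and of NF-kappaB and its inhibitors, 4 rose (16%, against 1.9% of all genes). None was called down, and the list median was 0.07. Nfkbie, an inhibitor that holds NF-kappaB in the cytoplasm, rose with 1.63 and 1.79 (3.28-fold, adjusted p = 1.52e-05), and Tnfaip3 (A20), which ends NF-kappaB signals by ubiquitin editing, with 1.16 and 1.31. Socs2, of the suppressors of cytokine signalling, rose with 1.05 and 1.34 and the ribonuclease gene Zc3h12a with 1.31 and 1.07. Nfkbia (-0.39 and 0.14) and Socs3 (0.08 and 0.06) were near 0, and Zc3h12a lost its call without replicate 1 and with normexp and loess.

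Interferon-inducible genes leaned downward. Of 48 genes 9 fell and 1 rose (18.8% and 2.08%, against 1.74% and 1.9% of all genes), with a list median of -0.26. The decreases were mostly in the family of large GTPases that restrict pathogens inside cells: 7 of its 14 genes fell, the family's median was -0.97, and 9 of the 14 were detected. Of the 14, 4 were called down without replicate 2 and 2 with normexp and loess. Gbp2b gave 55.3 against 181 and 48.5 against 170, log2 ratios of -1.71 and -1.81 (3.39-fold lower, SE 0.11, n = 2, adjusted p = 6.13e-05). Gbp2 fell with -1.12 and -1.39, Tgtp1 with -1.05 and -1.34, Gbp3 with -1.11 and -1.18 and Iigp1 with -1.86 and -1.73. Gbp7 and Gbp6 were called too, but Gbp6 was not well above background and Gbp7 only in control RNA of 1 array, and Gbp7 was not called with either array left out or with the replicate block. The antiviral genes Ifit1 (-2.04 and -1.60) and Parp14 (-1.19 and -1.73) completed the decreases, where the MAA channel of Iigp1 and of Ifit1 was well above background on 1 array only, and Irgm1 had -0.93 and -0.86. Usp18, a protease that ends interferon signals, was the gene that rose, with 1.66 and 1.31. The 13 factors of the IRF and STAT families were not called, with a median of 0.08 (Irf1 had -0.11 and -0.29). With normexp and loess 3 genes of the list were called down, Gbp2b at -1.02. Of the genes followed singly Gbp2, Gbp7, Ifit1, Iigp1 and Usp18 lost their calls, and Gbp3, Gbp6 and Tgtp1 were not followed singly.

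In the Toll-like receptor pathway 3 of 20 genes fell and 1 rose (15% and 5%, against 1.74% and 1.9% of all genes). The list median was -0.30. All 3 decreases were among the 10 receptors and co-receptors, of which none had a mean above 0. Tlr7, a receptor for single-stranded RNA, had -2.12 and -2.22 (4.50-fold lower, SE 0.07, n = 2, adjusted p = 1.26e-05), Tlr3, for double-stranded RNA, -1.40 and -2.08, and Ly96, the MD-2 partner of TLR4, -1.44 and -1.41. Tlr2 had -0.82 and -1.11 and Tlr4 -0.46 and -0.84, neither past 2-fold. The adaptor gene Ticam1 rose with 1.27 and 0.90, a call lost without replicate 1 and with normexp and loess.

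Secreted regulators of growth split by family. Of 14 IGF binding and CCN proteins 2 rose and 3 fell (14.3% and 21.4%, against 1.9% and 1.74% of all genes). The median was -0.24. Ccn2 and Ccn1, matrix-bound proteins known as targets of YAP and serum response factor, rose with 1.75 and 2.27 (4.02-fold, adjusted p = 7.48e-05) and with 1.68 and 1.98 (3.55-fold, adjusted p = 2.87e-05), while their relative Ccn4 fell with -1.61 and -1.50 (2.93-fold lower). Igfbp5, which binds insulin-like growth factors, fell with -1.93 and -2.21 (4.20-fold lower, SE 0.09), and a second, dim probe had a mean of -0.83. Htra3, a protease of the matrix, had -1.02 and -1.38 on its brightest probe and 0.05 on another. Of 39 other growth factor genes none rose and 3 fell (7.69%), Angpt2, Fgf21 (-1.19 and -1.34) and Stc1 (-0.99 and -1.34). In the TGF-beta and BMP pathway 1 of 50 genes rose and 1 fell (2% each, near the shares of all genes). The decrease was that of the ligand gene Bmp4 (-1.18 and -1.13). The activin subunit gene Inhba had 0.78 and 1.06. Of 49 WNT pathway genes only the receptor gene Fzd1 (-1.06 and -1.22) and Wnt10b (-0.53 and -1.51) were called (4.08%, both down). Wnt10b, whose MAA channel was above background on 1 array, was lost without replicate 2. Stc1 was also lost without replicate 2, and Htra3, Stc1 and Wnt10b with normexp and loess.

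Matrix and adhesion genes moved in both directions. Among 66 matrix genes 2 rose (3.03%, against 1.9% of all genes) and 4 fell (6.06%, against 1.74%). The collagen gene Col11a1 rose with 1.43 and 1.02, while a dim second probe had 1.01 and -0.07. Thbs1, thrombospondin, rose with 1.04 and 1.27. The decreases included those of Lum, a small proteoglycan of collagen fibrils, with -1.23 and -1.85, and of its relative Omd, with -1.54 and -1.87. Lum lost its call with normexp and loess, and Omd lost it without either array, with normexp and loess and with the replicate block. Of 55 adhesion genes 2 rose and 5 fell (3.64% and 9.09%). The beta protocadherins, adhesion proteins encoded in 1 cluster, held 4 of those 5 decreases: 4 of 21 were called down, the median was -0.86, and 1 of the 21 had a mean above 0. Pcdhb15 had -1.17 and -1.35 (2.40-fold lower, adjusted p = 3.69e-05), with a second probe called at -1.16. Pcdhb19 had -1.18 and -1.06, a call lost with normexp and loess, and Pcdhb11 and Pcdhb13 were not well above background. Over the settings tried 2 to 8 of these genes were called down. Mcam, an adhesion molecule of the immunoglobulin family, rose with 1.12 and 1.55, and Amigo2 fell with -1.26 and -1.29.

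Signalling through inositol phosphates, calcium and cyclic AMP had mostly increases among its calls. Of 67 phosphoinositide and calcium genes 5 rose and 1 fell (7.46% and 1.49%, against 1.9% and 1.74% of all genes). The median was 0.04. Itpka, the kinase that turns inositol trisphosphate into tetrakisphosphate, rose with 2.28 and 2.09 (4.55-fold, SE 0.07, n = 2, adjusted p = 1.26e-05). The phospholipase C genes Plcd1 and Plcd3 rose with 1.55 and 1.49 and with 1.26 and 1.33, Pdpk1, the kinase that activates AKT, with 1.15 and 1.45, and Camkk1 with a mean of 1.09. Nfatc4, a calcium-responsive transcription factor, fell with a mean of -1.05 and lost its call after centring, without replicate 2 or with normexp and loess. Among 31 cyclic AMP genes 3 rose (9.68%). Rgs16, which switches off G proteins, rose with 2.06 and 2.11 (4.25-fold), the adenylate cyclase Adcy9 with 0.90 and 1.41 and the anchor protein Akap12 with 0.98 and 1.19. Camkk1, Adcy9 and Akap12 were not called without replicate 2, nor was Adcy9 with normexp and loess. Of 34 small GTPase genes 3 rose (8.82%) and none was called down, with a median of 0.23. The 3 were Rassf5 (1.82 and 1.67), Rnd1 (1.21 and 1.59) and Rhod (1.11 and 1.04).

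Linker histones lay above the median of all genes. Of 8 linker histone genes 2 rose (25%, against 1.9% of all genes) and the median was 0.51. H1f0, the linker histone of cells that stop dividing, rose with 1.19 and 1.06 (2.19-fold, SE 0.07, n = 2, adjusted p = 4.87e-05), and its other probes had means of 1.36 and 1.44. H1f3 had 2.42 and 1.56 on its brightest probe but 0.01 on another, and replication-linked histone genes share sequence, so this value is uncertain (1.13 with normexp and loess). H1f2 had 1.05 and 0.56 and H1f10 0.96 and 0.61. Of 48 core histone genes listed only 24 had a probe with a symbol. None of these 24 was called, with a median of -0.04, and the other listed core histone genes were not assessed. Of 17 histone deacetylase genes none rose and 1 fell (5.88%, against 1.74% of all genes). This was Sirt1, a sirtuin, with -1.12 and -1.05, and it was not called after centring. The median of that list was 0.12, with Hdac1 at 0.25 and 0.10 and Hdac5 at 0.29 and 0.40. Of 49 chromatin modifier genes 2 rose (4.08%, against 1.9% of all genes) and none was called down. Arid5b had 1.00 and 1.16 and Baz2a 0.82 and 1.25, and neither kept its call when replicate 2 was left out. Neither was called with normexp and loess. Further probes of Arid5b had means of 0.00, -0.55 and -0.69. Some chromatin genes outside these lists were picked from the called genes after their values were seen. They therefore do not show how such genes moved as a group. Beside Kmt5b, those that fell include Epc2 (-1.94 and -2.10, 4.06-fold lower) and Epc1 (-1.31 and -1.30), of the enhancer of polycomb family, and the INO80 remodeller subunit gene Ino80c (-1.39 and -1.47). Ing5 (mean -1.19), Kdm8 (mean -1.14) and Baz2b (mean -1.10) fell too, while Arid5a rose with 1.87 and 1.78.

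Among factors of development, Ahr, the aryl hydrocarbon receptor, rose with 1.57 and 1.24 (2.65-fold, adjusted p = 9.03e-05), and Scx, the tendon factor scleraxis, fell with -1.18 and -1.27 (2.34-fold lower, adjusted p = 2.17e-05). Of 61 homeobox genes 4 fell and 1 was called up (6.56% and 1.64%, against 1.74% and 1.9% of all genes). The median was -0.17. Hoxd4 had -1.58 and -1.57, Lhx9, a gonadal factor, -1.15 and -1.63, and Dlx1 -0.95 and -1.50, which was not called without replicate 2. Irx1 was not well above background and Hoxd10 only in 1 MAA channel. Zinc finger genes named Zfp, many of them repressors, fell more often than they rose, 15 against 2 of 254 (5.91% and 0.787%, against 1.74% and 1.9% of all genes), with a median of -0.16. Zfp467 had the largest of these decreases with both channels measured, with -1.83 and -1.94 (3.70-fold lower, adjusted p = 1.44e-05), and Zfp786 rose, with 2.20 and 1.62 (1.02 with normexp and loess). Between 7 and 22 Zfp genes were called down over the settings tried, the lowest counts with normexp and loess and after centring. Of 63 genes of the BTB and Kelch families 5 fell (7.94%), among them Zbtb8b (-1.51 and -1.61), and none rose.

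Of 339 solute carrier genes 12 rose and 3 fell (3.54% and 0.885%, against 1.9% and 1.74% of all genes), with a median of -0.04. Among glucose transporters, Slc2a4 and Slc2a6 rose, Slc2a10 fell with -1.26 and -1.37, Slc2a3 had 1.29 and 0.69 and Slc2a1, the common form, 0.22 and -0.01. No enzyme of glycolysis or its control was called among 23, with a median of 0.03. Slc25a29, a mitochondrial carrier of basic amino acids, rose with 1.90 and 1.74 (3.54-fold, adjusted p = 1.86e-05), Slco4a1, an organic anion transporter, with 1.63 and 2.50, and Slc39a14, a carrier of zinc and iron, with 1.40 and 1.32. Of 226 genes of ubiquitin ligases and proteases 6 rose and 2 fell (2.65% and 0.885%, against 1.9% and 1.74% of all genes). Among them were Usp2, a protease known from the clock, with 1.40 and 1.65, and Trim21, with -0.95 and -1.36, not called without replicate 2. With normexp and loess the calls of Slc2a6 and Slc2a10 were lost.

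Among the 28 Leydig cell and steroidogenic genes only Shbg was called at 3 h, up (3.57%, against 1.9% of all genes). It was not well above background, and the list's median log2 ratio was -0.14. Star had signals of 235 against 116 and 157 against 86.2, log2 ratios of 1.02 and 0.87 (adjusted p = 0.00442), so it was higher on both arrays but under 2-fold on average, and its second probe had 0.85 and 0.41. Por, the electron donor of steroid hydroxylases, had 1.05 and 0.79, and Cyp17a1 -0.30 and -0.11. Outside the list, and noticed after its values were seen, Hsd17b1, a dehydrogenase of steroid synthesis, rose with 1.45 on each array (2.73-fold, adjusted p = 5.28e-05), with a control channel above background on 1 array. None of 32 genes of cholesterol synthesis and uptake was called, with a median of 0.01. Of 41 nuclear receptors only Nr6a1 was called (2.44%), with 1.11 and 0.94, and not without replicate 1 or with normexp and loess.

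Lists of housekeeping and proliferation genes are short. Across all genes 1.9% were called up and 1.74% down, so a list without calls lies near those shares. None of 54 ribosomal protein genes was called, and their means lay between -0.20 and 0.16. None of 38 genes of DNA replication and mitosis was called, with a median of -0.24 against -0.07 for all genes, and 6 of the 38 had a mean above 0. None of 21 genes of RNA polymerase II elongation and splicing was called, with a median of -0.29. Of 41 cell cycle regulators 3 rose and 1 fell (7.32% and 2.44%). The polo-like kinases Plk3 (1.79 and 1.56, 3.18-fold, adjusted p = 9.44e-05) and Plk2 and the stress gene Gadd45b (1.11 and 0.98) rose. Ccng2, a cyclin of arrested cells, fell (-1.07 and -1.19). Cdkn1a (p21), a gene that inhibitors of histone deacetylases are known to induce, had 0.41 and 0.57, and Ccnd1 0.10 and 0.38. In the BCL2 family and its neighbours 2 of 32 genes rose and 1 fell (6.25% and 3.12%). The survival gene Bcl2 (1.13 and 1.11, with a second probe at 0.71) and the death gene Pmaip1 (0.99 and 1.18) rose. Birc3, an inhibitor of caspases, fell with -1.24 and -1.40. Oxidative stress genes had 1 call of 40 (2.5%), Mgst3 (0.92 and 1.37), while Hmox1 had -0.68 and -0.53. Ddit3, a marker of the unfolded protein response, had 0.05 and -0.02. Of the calls in these lists, Gadd45b was lost without replicate 1, and Plk2, Pmaip1 and Mgst3 without replicate 2.

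How the first changes looked at later times was asked with the 8 h and 24 h arrays, each with its own controls of that time. Of the 304 genes that rose at 3 h, 189 were also called up at 8 h (62.2%, and 28.9% of the 8 h list), 136 at 24 h (44.7%, and 16.2% of the 24 h list) and 100 at neither. Of the 278 that fell, 148 were called down at 8 h (53.2%, and 37.7% of that list), 66 at 24 h (23.7% and 24.4%) and 120 at neither. At 8 h 4.08% of genes were called up and 2.45% down, and at 24 h 5.23% and 1.69%. The difference between times passed an adjusted p of 0.05 for 140 of the 582 called genes against 8 h (24.1%, where 6.51% of all genes passed), and for 306 against 24 h (52.6%, where 19.5% of all genes passed). The change was larger at 3 h in 104 of the 140 and in 268 of the 306. The genes were chosen by their values at 3 h, so smaller values at other times follow in part from the choice. With the 6 arrays of 5 mM fitted alone, none of 1451 called probes passed the test against 8 h, although 652 had an unadjusted p under 0.05, and 425 passed against 24 h, where 15.8% of all probes passed with 12 arrays. With any 1 array of the pair of times left out, 60 to 234 called probes passed against 8 h, where 301 did with all arrays (5.1% of all probes passed it).

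Several regulators had a response at 3 h that was smaller at 8 h by test. Egr1 went from 2.18 at 3 h to 0.23 at 8 h (difference 1.95, adjusted p = 0.00329) and 1.72 at 24 h. Per2 went from 1.33 to -0.56 (difference 1.89, adjusted p = 0.00123) and 1.37, and Dusp6 from 1.31 to 0.00 (difference 1.31, adjusted p = 0.00146) and 1.01, so these 3 genes were near or below 0 at 8 h and called again at 24 h. Per1, Nr4a1, Spry1, Nfkbie, Plk3 and Taok3 also had smaller values at 8 h, with adjusted p between 0.0014 and 0.016, and at 24 h. Fos did not pass that test, with 1.85 at 3 h and 1.77 at 8 h, a difference of 0.07. Ccn1 was at 1.83 and 2.06 at 3 and 8 h and at 0.08 at 24 h (adjusted p of the difference from 3 h, 4.89e-04).

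Decreases that were smaller later included those of Cxcl5, from -2.84 at 3 h to -1.53 at 8 h (adjusted p = 0.00647) and 0.12 at 24 h, and of Gas1, from -1.85 to -0.65 (adjusted p = 0.00442) and -0.04. Igfbp5 went from -2.07 to -1.04 (adjusted p = 0.0087) and was at 0.79 at 24 h. Fgf21 went from -1.27 to 0.75 (adjusted p = 0.00181). Other genes had 8 h and 24 h values near or beyond the first ones: Slc2a4 stood at 4.32 and 3.98, Areg at 3.40 and 3.30, Pkp2 at 2.40 and 2.49, Kank3 at 2.41 and 2.22, Angpt2 at -2.93 and -2.20 and Fam180a at -2.38 and -2.58. For these 6 genes the adjusted p of each difference from 3 h was between 0.0741 and 0.821. Gch1 (2.48, then 3.62 and 3.12) and Cxcl10 (2.22, then 3.57 at 8 h) had larger increases at 8 h than at 3 h (adjusted p = 0.00306 and 0.00256).

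**Figure D4:**
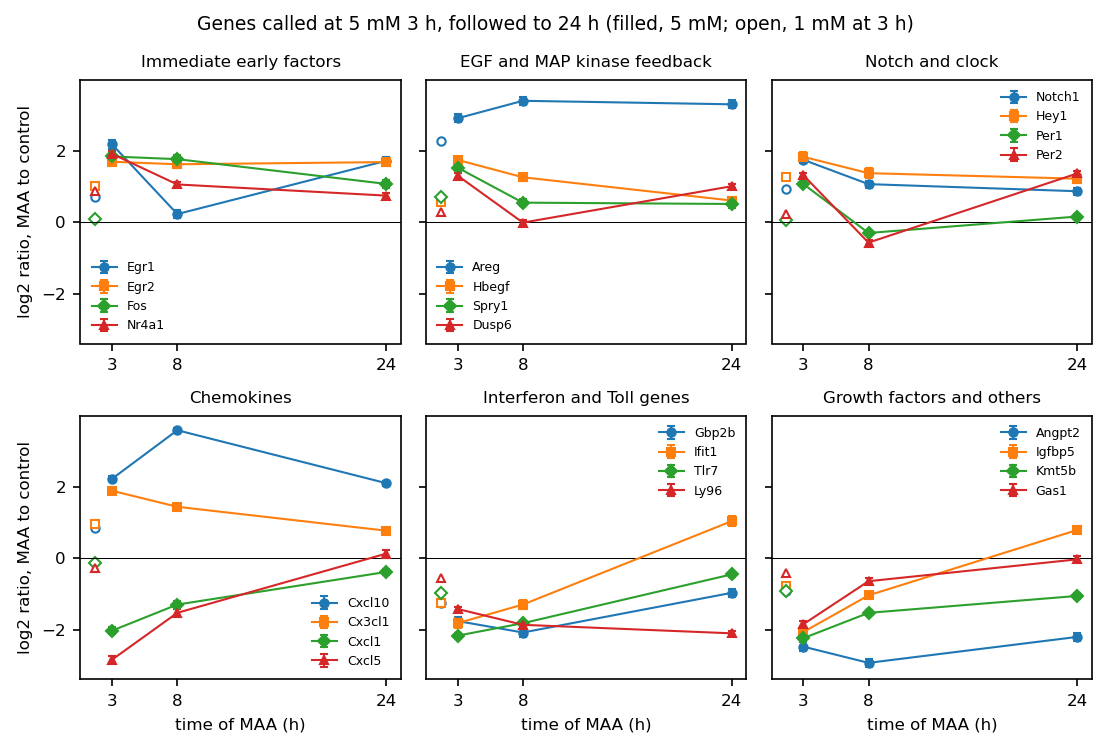
Log2 ratio of MAA to control (y axis) against hours of 5 mM MAA (x axis) for 24 genes called at 3 h, in 6 panels by function; filled points are means of 2 arrays with the standard error of the fit, and open points, drawn beside the 3 h points, are the means of the 1 mM arrays at 3 h. Egr1, Per2 and Dusp6 fall to 0.23, -0.56 and 0.00 at 8 h and lie above 1 again at 24 h, Areg stays above 2.9 throughout, and Cxcl5 moves from -2.84 to 0.12.

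Whether the first changes depended on concentration was asked with the 2 arrays of 1 mM MAA at 3 h, which may share control RNA with those of 5 mM. The log2 ratios of those 2 arrays correlated at -0.13 over all probes and at 0.41 over 24625 probes well above background. Of the 582 called genes, 286 (49.1%, where 4.22% of all genes passed) differed between the concentrations at an adjusted p of 0.05, and the change was larger at 5 mM in all 286. The genes were chosen on the 5 mM arrays, so larger values at 5 mM follow in part from the choice. Median log2 ratios at 1 mM were 0.61 for the genes called up and -0.48 for those called down at 5 mM. Slc2a4 had 3.03 and 2.45 on the 1 mM arrays (difference of the means 1.38, adjusted p = 0.0205), and Areg had a mean of 2.28 at 1 mM against 2.91 at 5 mM (adjusted p = 0.0833). Fos was at 0.10 at 1 mM and 1.85 at 5 mM (adjusted p = 0.00655), Ccn1 at 0.25 and 1.83 (adjusted p = 0.00506), and Egr1 at 0.71 and 2.18 (adjusted p = 0.00938). Among decreases, Cxcl5 was at -0.27 and -2.84 and Cxcl1 at -0.13 and -2.03 (adjusted p = 0.00506 for each). With the 4 arrays of 3 h fitted alone no called probe passed the test between concentrations (3.4% of all probes passed it with 12 arrays), although 1007 of 1246 had an unadjusted p under 0.05, so these calls rest on the spread shared by all 12 arrays.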

How the data were processed

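The study hybridised RNA pools of 3 cultures to 12 Agilent 2-colour arrays, with dyes exchanged between the replicates of each treatment. The authors extracted processed signal intensities with Agilent Feature Extraction 9.5.3.1, per the file headers after background subtraction, detrending and dye normalization by a linear and LOWESS method. The deposited log10 ratios follow the scanner's with the sign turned to MAA over control, from which they differ by at most 0.095 on any array, and they served as an alternative. The genome build behind the probe design is not given in the sources used here.

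Control and outlier spots were left out, spots of 1 probe averaged, and log2 ratios of MAA to control fitted with limma 3.58.1 (R 4.3.3) over all 12 arrays, 1 coefficient for each of 6 treatments, which left 6 residual degrees of freedom. Calls used an unadjusted p of 0.005 and a 2-fold change, after the study's own rule, whose Rosetta Resolver p-values were not computed. Contrasts between treatments were called at an adjusted p of 0.05. Probes were named through RefSeq accessions, which left 19027 without a symbol. The script was tested on simulated data first. Text names came from the 15 largest changes measured in both channels in each direction, the 6 largest lower limits, a list of key genes, the 6 largest calls of each list and the 5 largest differences of each contrast, and further list members were named after their values were seen, while some genes that these rules pick are not reported here. Members and gene lists were chosen with earlier results of these data known. Counts of a list are descriptions without a test. Array number limits the precision. The p-values measure the spread between the 2 arrays of a treatment, pooled over 6 treatments, in which pool, dye orientation and slide differ together. Alternatives changed background correction, centring, dim and outlier spots, blocks, the arrays fitted, the call rule and the probe rule.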

Additional observations from a re-analysis of the deposited data

Results flagged for a closer look

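Genes called at 5 mM for 3 h and called in the opposite direction at a later time, with an adjusted p for the difference (limma, all 12 arrays) under 0.05, were picked out where a channel was well above background at 3 h. Lep at 8 h and Cilp at 24 h also changed sign by these criteria, but neither of their channels was well above background at 3 h. Groups of 2 arrays allow no test for outlying samples.

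At 8 h these were Krtap1-5, a keratin-associated protein, which stood at -1.58 on the log2 scale at 3 h and at 1.37 at 8 h (difference -2.95, adjusted p = 0.0029), and Spry4, the Sprouty inhibitor, with 1.19 and -1.16 (difference 2.34, adjusted p = 0.0225), whose 3 h call was lost without either array. Both 3 h calls were lost with normexp and loess.

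At 24 h, Lum went from -1.54 at 3 h to 1.89 (difference -3.43, adjusted p = 0.000384) and Plxdc1 from -1.73 to 1.70 (difference -3.43, adjusted p = 0.000406). Casq2, the calcium store protein calsequestrin, went from -1.58 to 1.47 (difference -3.05), Mrgprf from -1.23 to 1.15 (-2.38) and Sema3d, a guidance cue, from -1.37 to 1.19 (-2.55). The 3 h calls of Lum and Plxdc1 were lost with normexp and loess, and those of Casq2, Mrgprf and Sema3d were not followed over the settings. Both channels of these 5 genes were well above background on all arrays of both times.

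The interferon-inducible genes Ifit1 and Iigp1 went from -1.82 to 1.03 (difference -2.85) and from -1.80 to 1.45 (difference -3.25), with an MAA channel above background on 1 of the 2 arrays at 3 h. The EGF receptor ligand gene Btc went from -1.82 to 1.23 (difference -3.04) and Celsr1, an adhesion receptor, from -1.98 to 2.87 (difference -4.85), and neither was well above background in MAA RNA at 3 h, so the size of these differences is uncertain. The same holds for Nlrp4f (-1.38 and 1.45, difference -2.84), Esyt3 (-1.29 and 1.04, difference -2.33), Dhrs7 (-1.46 and 2.08, difference -3.54) and Gpr84 (1.34 and -1.51, difference 2.86), each dim in at least 1 channel. The adjusted p of the differences in these 8 genes lay between 8.92e-05 and 0.00391. Ifit1, Iigp1, Btc, Celsr1, Dhrs7 and Gpr84 were no longer called at 3 h under normexp and loess, where Dhrs7 stood at -0.29 and Gpr84 at 0.14. Fitting the 6 arrays of 5 mM alone ended the calls of Btc and Dhrs7, and fitting the 4 arrays of 3 h alone those of Btc and Gpr84. Dhrs7 also lost its call without either array, and Gpr84 without replicate 1. Nlrp4f and Esyt3 were not followed over the settings.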

How the results depend on the processing

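Calls were followed gene by gene over the settings for 189 called genes that the naming rules picked. Other called genes in the text, among them Klf3, Epc2, Casq2 and Hsd17b1, were not followed. No setting reversed the direction of any of the 189 calls. Of these, 102 were also made with normexp and loess, 182 with the deposited log10 ratios and 182 after centring. Some were lost without replicate 1 or without replicate 2. With all arrays 831 probes were called up and 715 down. Counts that moved by over 1.5 times were 290 up and 245 down with normexp and loess, and 304 and 278 with 1 probe a gene, which tests fewer features. Leaving out 1 array gave 763 to 866 up and 627 to 892 down. A centring on probes above background in both channels, chosen after seeing the data, gave 867 and 691, a share of 55.6% up.

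The 301 called probes that differed between 3 h and 8 h became 169 with normexp and loess, 133 after centring, 456 with dim probes left out, 516 with the replicate block, 0 with the 6 arrays of 5 mM alone, 152 with 1 probe a gene and 60 to 234 with 1 array left out. The 776 between 3 h and 24 h became 336 with normexp and loess, 425 with the arrays of 5 mM alone, 321 with 1 probe a gene and 472 to 862 with 1 array left out. The 623 between 5 mM and 1 mM became 204 after centring, 0 with the 4 arrays of 3 h alone, 310 with 1 probe a gene and 79 to 357 with 1 array left out. The cause of these shifts was not tested, apart from the smaller number of features or arrays.

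Equal replicate numbers mark the dye orientation and nothing else in the labels. Deviations of equally numbered arrays correlated at 0.075 to 0.514 over 15 pairs of treatments, 14 of them over 0.1, and at 0.132 to 0.514 in the pairs with 5 mM for 3 h. With only 2 numbers a group, and orientation as their one known meaning, they were not taken to pair the samples. The replicate block gave 832 probes up and 710 down. Of the calls in the report that were followed gene by gene, it ended those of Omd and Gbp7. Signal over background limits the rest, since 62.4% of the 41174 probes were detected.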
